A study of Mus musculus with 2 samples.

Results

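Chemokines are small secreted or membrane-tethered proteins that direct the movement of leukocytes and other cells, and their receptors are proteins of the G protein-coupled family. The chemokine and chemokine receptor genes were taken by symbol from a gene table of Pdpn+ kidney cells, that is, every Ccl, Cxcl, Ccr, Cxcr, Xcr and Ackr gene with a number in its symbol together with *Xcl1*, *Cx3cl1*, *Pf4*, *Ppbp* and *Ccrl2*. The rule gave 69 gene IDs with 63 symbols, of 55471 gene IDs in all. Of the 69, 19 had at least 20 counts in at least 1 library and are called measured here, 18 had counts but fewer than 20 in each library, and 32 had no counts in either library. The rule did not use how the genes differed between the libraries.

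The table comes from bulk RNA-Seq of mouse kidney cells negative for EpCAM, CD45 and Nephrin and positive for Pdpn, with 1 library from VhlhKO mice and 1 library from Ctrl mice. VhlhKO mice carried *Hoxb7-Cre-GFP* and *Vhlh* loxP/loxP, so that Cre under the *Hoxb7* promoter deletes exon 1 of *Vhlh* in tubule epithelium, and not in the sorted cells by design. Ctrl mice carried *Hoxb7-Cre-GFP*/+ according to the genotype label and the methods, while the description label of the same sample names *Vhlh* loxP/loxP and the protocol allows either. All mice were male C57BL/6J without treatment, with an age of 12 weeks in the sample labels, 8 to 12 weeks in the protocol and 10 to 12 weeks in the design text. The labels give 6 mice per genotype, and the sections of the methods differ on how many were pooled for a library. The sorted cells were kept for some hours in endothelial cell medium before RNA was extracted. Neither genotype was replicated, so no test between them was possible and nothing here covers the spread between mice or pools.

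Library totals were 34465017 counts for VhlhKO and 31817115 for Ctrl. *Vhl*, the targeted gene, had 975 counts in VhlhKO and 938 in Ctrl. This is a weak check, because the deletion was by design in tubule cells and counts per gene do not single out exon 1. Tubule genes differed in both directions. *Cdh16* had 3110 counts in VhlhKO and 3954 in Ctrl, while *Umod* and *Aqp2* had none. *Epcam*, which the sort selected against, had 155 counts in VhlhKO and 69 in Ctrl (ratio 2.09, 1.56 to 2.81). *Lrp2* of the proximal tubule had 1528 and 1041 (ratio 1.36, 1.26 to 1.48). Whether the sort held tubule cells with the deletion was not tested. Of 7 markers of lymphatic endothelial cells 4 were measured. *Pdpn*, on which the cells were sorted, had 2313 counts in VhlhKO and 1836 in Ctrl, *Flt4* (Vegfr3) had 898 and 710, *Prox1*, the lymphatic transcription factor, had 142 and 144, and *Lyve1* had 128 and 10. *Reln* had 14 counts in VhlhKO and 7 in Ctrl, and *Mmrn1* and *Ccl21a*, the chemokine that lymphatic endothelium is known for, had none in either library. The smooth muscle actin gene *Acta2* had 72718 counts in VhlhKO and 69178 in Ctrl. The cells are called Pdpn+ cells here, as they were sorted. In bulk samples, more cells of a type and more RNA per cell cannot be told apart.

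Chemokines are grouped as CC, CXC, CX3C and XC by the spacing of their leading cysteines, and by use as homeostatic chemokines, which set the resting position of cells, or inflammatory chemokines, which are induced by injury and cytokines. Signalling receptors couple to Gi proteins, while the atypical receptors bind chemokines without such coupling and remove or redistribute them. In the kidney, chemokines made by tubule, stromal and endothelial cells are known for drawing monocytes, neutrophils and lymphocytes into injured tissue.

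Of the 69 genes, 4 exceeded Ctrl by 2-fold or more in VhlhKO (*Cxcl13*, *Ccl6*, *Ccl2* and *Ccl7*), and 0 lay that far below it. A gene was counted as 2-fold where the log2 ratio of VhlhKO over Ctrl reached 1 in size after 0.5 CPM (a count relative to the scaled library total) had been added to both sides, and where at least 1 library had at least 20 counts. Across all 15275 genes with that many counts, 1.71% were higher and 0.524% were lower by this rule. Of the 19 measured genes, 15 had at least 20 counts in both libraries, and 2 of these 15 were past 2-fold (*Ccl6* and *Ccl2*). The other 4 (*Cxcl13*, *Ccl7*, *Ccr1* and *Ccrl2*) had that many in VhlhKO but not in Ctrl, and so could be measured only if VhlhKO was the library with more counts. The counts of a gene family chosen by name are given here as a description, and nothing particular to the family was tested.

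The ratios that follow are ratios of the scaled counts without the added amount, each with its exact 95% interval (Clopper-Pearson). PCR copies are not independent molecules, and the intervals cover counting error only. The interval lay above a ratio of 1 for 10 of the 19 measured genes, below it for 1 and across it for 8. Among the 10 were *Cxcl13*, *Ccl7* and *Ccr1*, which reached 20 counts in VhlhKO only. The minimum thus let them in only with more counts in VhlhKO. Over all 15275 genes the interval lay above 1 for 2907 (19%) and below 1 for 2645 (17.3%). Over the 19 genes the median log2 ratio was 0.47, and over the 15 measured in both libraries it was 0.37, beside -0.00065 over all 15275 genes.

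For 4 genes the sequences that follow are the 250 bases before the start site, from RefSeq on GRCm38.p6 and written 5′ to 3′ on the strand of the gene. *Cxcl13* and *Ccl6* are shown because they had the largest log2 ratios of the family with 0.5 CPM added, *Ccl9* because it lies next to *Ccl6* and fell just short of 2-fold, and *Cxcl10* because it differed little. Capitals mark matches to the NF-kappaB consensus, to the AP-1 site TGANTCA and to the interferon response element on either strand, to the hypoxia response element core ACGTG on either strand, and to TATAAA on the strand of the gene.
Cxcl13, chr5:95956689-95956938, plus strand: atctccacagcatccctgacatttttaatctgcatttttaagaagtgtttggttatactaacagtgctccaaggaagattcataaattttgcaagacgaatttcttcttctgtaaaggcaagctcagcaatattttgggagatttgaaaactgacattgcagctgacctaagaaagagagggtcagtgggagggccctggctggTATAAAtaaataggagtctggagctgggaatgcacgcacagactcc
Ccl6, chr11:83593088-83593337, minus strand: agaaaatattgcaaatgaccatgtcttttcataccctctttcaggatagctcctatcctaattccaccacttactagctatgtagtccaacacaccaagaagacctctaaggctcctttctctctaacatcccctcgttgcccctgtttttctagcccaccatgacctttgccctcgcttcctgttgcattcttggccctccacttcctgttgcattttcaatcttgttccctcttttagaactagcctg
Ccl9, chr11:83578637-83578886, minus strand: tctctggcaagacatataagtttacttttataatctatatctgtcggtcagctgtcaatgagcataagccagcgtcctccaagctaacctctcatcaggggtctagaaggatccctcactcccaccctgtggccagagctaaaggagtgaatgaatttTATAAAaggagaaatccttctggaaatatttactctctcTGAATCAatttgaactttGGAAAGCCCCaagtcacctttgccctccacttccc
Cxcl10, chr5:92348890-92349139, minus strand: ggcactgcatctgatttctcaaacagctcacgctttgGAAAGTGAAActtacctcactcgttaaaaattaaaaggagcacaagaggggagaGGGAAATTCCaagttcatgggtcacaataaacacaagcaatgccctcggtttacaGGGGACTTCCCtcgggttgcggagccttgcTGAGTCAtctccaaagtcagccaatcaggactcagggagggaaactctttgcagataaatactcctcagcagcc

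In these windows *Cxcl13* held only the TATAAA match, which 7.59% of 32851 windows of the same length hold, and *Ccl6* held none of the 5 motifs. The *Ccl9* window held 1 match each to NF-kappaB, AP-1 and TATAAA, and the *Cxcl10* window held 3 matches to NF-kappaB, of which 2 overlap, and 1 each to AP-1 and to the interferon response element. Over all windows the shares were 7.25% for NF-kappaB, 6.75% for AP-1, 2.98% for the interferon response element and 16.6% for ACGTG. Windows were found for 16 of the 19 measured genes, and those of *Ccl2*, *Ccl7* and *Cxcl16* were not. Besides *Ccl9* and *Cxcl10*, the NF-kappaB consensus was matched before *Ccr1*, *Ccrl2* and *Cxcl1*, the AP-1 site before *Ccl27a* and *Ppbp*, ACGTG before *Ackr4*, *Ccrl2* and *Cxcl1*, and TATAAA before *Ackr3*, *Ackr4*, *Ccl25*, *Cx3cl1* and *Ppbp*. A match is a description of these letters and does not show that a factor binds there.

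*Cxcl13*, the attractant of B cells and of follicular helper T cells, lies on chromosome 5 from 95956951 to 95961068 (GRCm38). It had 41 counts in VhlhKO and none in Ctrl, or 3.71 TPM (the authors' transcript level, which takes gene length into account) in VhlhKO against 0 TPM in Ctrl. A count of 0 in Ctrl allows up to 3 counts, and with the VhlhKO count taken as it stands *Cxcl13* was at least 12.7-fold higher than that limit. The exact 95% counting interval of its ratio, which also covers the error of the 41 counts, starts lower, at 9.87. In the whole table it was the only gene with at least 41 counts, its own count, in VhlhKO and none in Ctrl. The cut was set by *Cxcl13* itself, and genes with fewer counts in VhlhKO and none in Ctrl were not counted. With at most 1 count allowed in Ctrl, 2 genes met that cut. In the opposite direction 2 genes had none in VhlhKO and at least 41 in Ctrl, *Slc34a1* (0 and 51) and *Fbp1* (0 and 42). They encode a phosphate transporter and a gluconeogenic enzyme of the proximal tubule. The TPM level of *Cxcl13* in VhlhKO was below that of 11 of the 14 other measured chemokines in the same library, so that the gene with the largest ratio was not an abundant chemokine.

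*Cxcl12*, the homeostatic stromal chemokine that holds Cxcr4-bearing cells in place, had 1337 counts in VhlhKO, the most of the family in that library, and 795 in Ctrl, where *Cx3cl1* had more. Its ratio was 1.56 (1.43 to 1.71), within 2-fold and beyond counting error. Per length it stood at 17.0 TPM in VhlhKO and 10.9 TPM in Ctrl. Of the other homeostatic chemokines, *Ccl25*, known from thymus and small intestine, had 374 counts in VhlhKO and 347 in Ctrl (ratio 1.00, 0.863 to 1.16), and *Ccl27a*, known from skin, had 221 and 205 (ratio 1.00, 0.825 to 1.22). These genes differed by less than counting error. *Ccl28*, a chemokine of mucosal epithelia, had 42 counts in VhlhKO and 53 in Ctrl (ratio 0.736, 0.479 to 1.13). Both *Ccl25* and *Ccl27a* overlap a gene on the other strand that had more counts, *Elavl1* (3135 in VhlhKO and 3081 in Ctrl) and *Il11ra1* (1036 and 992). The libraries kept the strand, but the strand setting of the counting is not given in the sources used here, so the values of these genes and of *Ackr4*, which overlaps *Acad11* (1204 and 956), are uncertain. *Ccl6*, *Cxcl16*, *Cxcl10* and *Ccl2* also overlap a gene on the other strand, and each of those had fewer counts than the chemokine in both libraries.

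*Ccl2* and *Ccl7*, attractants of monocytes through Ccr2, were both higher in VhlhKO. *Ccl2* had 179 counts in VhlhKO and 69 in Ctrl (ratio 2.41, 1.82 to 3.23). *Ccl7* had 53 counts in VhlhKO and 16 in Ctrl (ratio 3.08, 1.73 to 5.77). The 2 genes are neighbours on chromosome 11, where *Ccl2* lies from 82035571 to 82037453 and *Ccl7* from 82045712 to 82047525. In the same cluster *Ccl12*, also a ligand of Ccr2, and *Ccl8* had 1 count each in VhlhKO and none in Ctrl, and *Ccl11*, the eosinophil attractant, and *Ccl1* had none in either library. Counts in this cluster thus came almost wholly from *Ccl2* and *Ccl7*.

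*Ccl6* and *Ccl9*, CC chemokines of rodents that myeloid cells make and that bind Ccr1, lie side by side in another cluster of chromosome 11. *Ccl6*, from 83587882 to 83593087, had 376 counts in VhlhKO and 119 in Ctrl (ratio 2.94, 2.38 to 3.64). At 21.8 TPM in VhlhKO and 7.45 TPM in Ctrl it had the second highest TPM of all chemokines in VhlhKO, after *Cx3cl1*. *Ccl9*, from 83572919 to 83578636, had 79 counts in VhlhKO and 29 in Ctrl (ratio 2.53, 1.63 to 4.02). With the added amount its log2 ratio was 0.99, just under the rule, as that of *Ccl7* was 1.03, just above it. The other genes of the cluster stayed under 20 counts in both libraries. *Ccl5*, a T cell and monocyte attractant, had 14 counts in each, *Ccl3* had 14 in VhlhKO and 6 in Ctrl, and *Ccl4*, an attractant of monocytes and T cells, had 6 and 2. *Ccl17*, the Ccr4 ligand that draws type 2 helper and regulatory T cells, lies on chromosome 8 and had 55 counts in VhlhKO and 20 in Ctrl. Its count ratio was 2.56 (1.51 to 4.50), while its log2 ratio of 0.90 with the added amount left it within 2-fold.

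**Figure D1:**
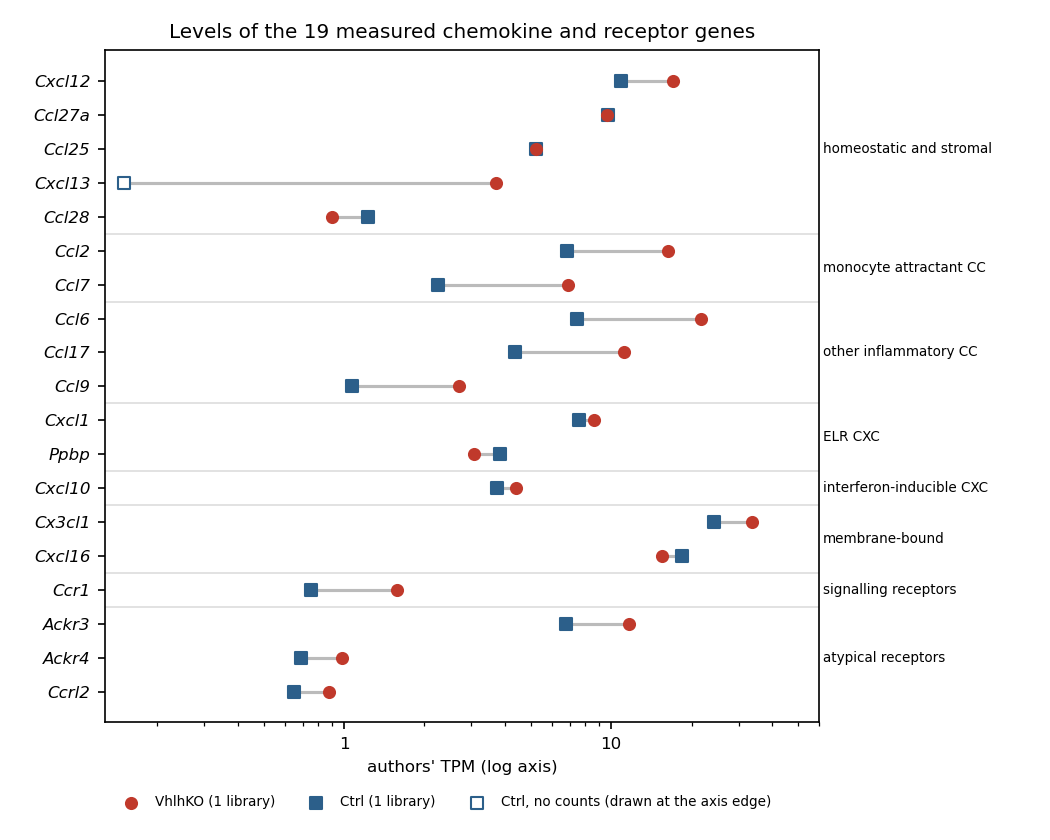
Levels of the 19 measured genes in the authors' TPM on a log axis, grouped by role, with VhlhKO as circles and Ctrl as squares (1 library each, no error bars). *Cx3cl1* stands highest in both libraries, at 33.6 TPM in VhlhKO and 24.2 TPM in Ctrl, and the open square of *Cxcl13* marks 0 counts in Ctrl.

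Of 5 CXC chemokines grouped here as ELR chemokines that attract neutrophils through Cxcr2, 2 were measured and neither was past 2-fold. The grouping was by name, and the ELR motif was not looked for in the sequences. *Cxcl1* had 155 counts in VhlhKO and 127 in Ctrl (ratio 1.13, 0.891 to 1.45), and *Ppbp*, the precursor of a platelet chemokine, had 32 and 37 (ratio 0.804, 0.485 to 1.33). Neither ratio lay beyond counting error. The other 3 were under the minimum, *Cxcl5* with 18 counts in VhlhKO and 5 in Ctrl (ratio 3.34, 1.20 to 11.5), *Cxcl2* with 13 and 6 (ratio 2.01, 0.714 to 6.46) and *Cxcl3* with 2 and 4. *Cxcl5* was the member just outside the minimum of 20 counts, as *Ccrl2* with 22 counts in VhlhKO and 15 in Ctrl was just inside. Of the interferon-inducible ligands of Cxcr3, only *Cxcl10* had counts, 95 in VhlhKO and 75 in Ctrl (ratio 1.18, 0.860 to 1.61), while *Cxcl9* and *Cxcl11*, on either side of it in the genome, had none.

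The membrane-tethered chemokines, which adhere leukocytes to cells and are released by shedding, were the most abundant group in TPM, with a sum of 49.1 TPM in VhlhKO and 42.6 TPM in Ctrl. The 2 genes differed in opposite directions, both within 2-fold. *Cx3cl1*, fractalkine, had 1270 counts in VhlhKO and 846 in Ctrl (ratio 1.39, 1.28 to 1.52). *Cxcl16* had 450 counts in VhlhKO and 494 in Ctrl (ratio 0.846, 0.743 to 0.964), and was the only measured gene of the family whose interval lay below 1. *Cx3cl1* lies between *Ccl22*, with no counts in either library, and *Ccl17* on chromosome 8.

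**Figure D2:**
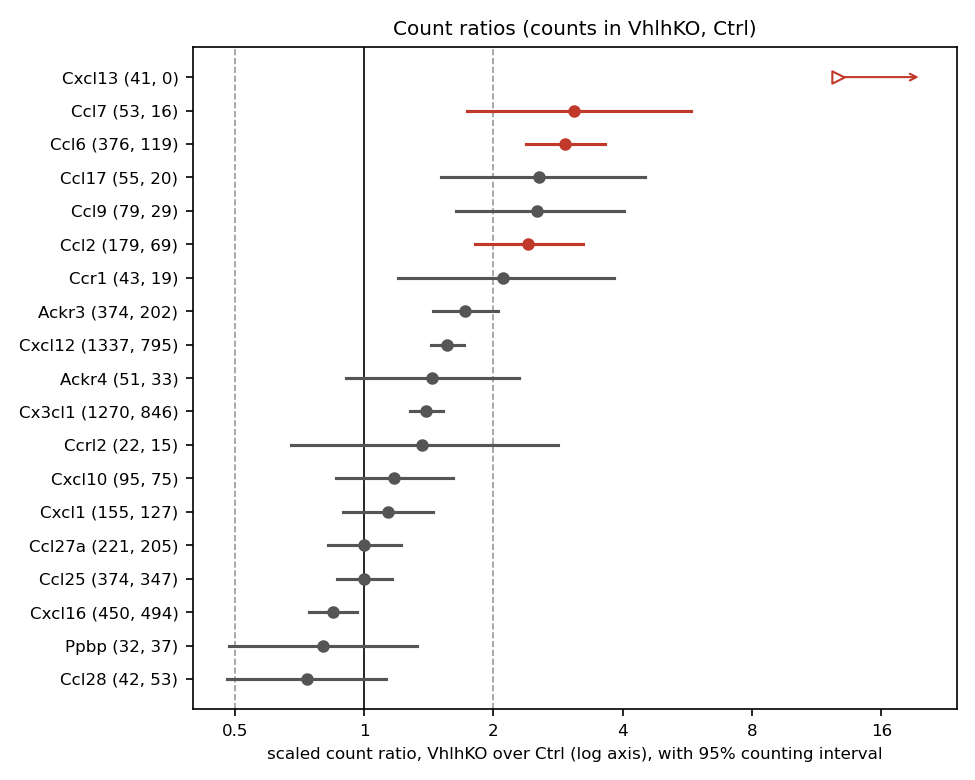
Ratio of scaled counts, VhlhKO over Ctrl, for the 19 measured genes on a log axis with 95% counting intervals, the counts in VhlhKO and Ctrl standing beside each name. Red marks the 4 genes past 2-fold by the rule with 0.5 CPM added, dashed lines mark 2-fold either way, and the open triangle of *Cxcl13* is its ratio of 12.7 to the limit of 3 counts in Ctrl, while its counting interval, which is not drawn, starts at 9.87.

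Most genes of the signalling receptors had few or no counts. Of the 17 signalling receptors that the symbol rule found, 11 had no counts in either library, 5 had between 1 and 15 counts at most, and *Ccr1* was measured. *Ccr1*, a receptor of *Ccl3*, *Ccl5*, *Ccl6* and *Ccl9* products on myeloid cells, had 43 counts in VhlhKO and 19 in Ctrl, with a count ratio of 2.10 (1.20 to 3.82) and a log2 ratio of 0.68 with the added amount, within 2-fold. *Cxcr4*, the signalling receptor of Cxcl12, had 15 counts in VhlhKO and 14 in Ctrl. *Ccr10* (2 in VhlhKO and 0 in Ctrl), *Ccr3* (0 and 1) and *Cxcr2* (0 and 1) had still fewer. *Cx3cr1*, the fractalkine receptor, whose symbol the rule did not match, had 79 counts in VhlhKO and 62 in Ctrl (ratio 1.18, 0.838 to 1.68).

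Receptors of the measured ligands were detected for some ligands and not for others. *Ccr1* for Ccl6 and Ccl9, *Cx3cr1* for Cx3cl1 and the atypical *Ackr3* for Cxcl12 and *Ackr4* for Ccl25 were measured, while *Cxcr4* for Cxcl12, *Ccr10* for Ccl27a and Ccl28 and *Cxcr2* for Cxcl1 and the product of *Ppbp* had counts under the minimum. *Cxcr5*, the receptor of Cxcl13, *Ccr2*, a receptor of Ccl2 and Ccl7 but not the only one of Ccl7, and *Ccr4*, that of Ccl17, had no counts in either library. The same held for *Ccr9*, the signalling receptor of Ccl25, *Cxcr3*, that of Cxcl10, and *Cxcr6*, that of Cxcl16. A count of 0 allows up to 3 counts, or 0.0873 CPM in VhlhKO and 0.0940 CPM in Ctrl, so lower levels were not detectable at this depth. The sort selected against CD45-positive cells, in which most of these receptors are known to be expressed. *Ptprc*, which encodes CD45, still had 24 counts in VhlhKO and 12 in Ctrl. The part of the sort in the receptor counts was not tested.

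**Figure D3:**
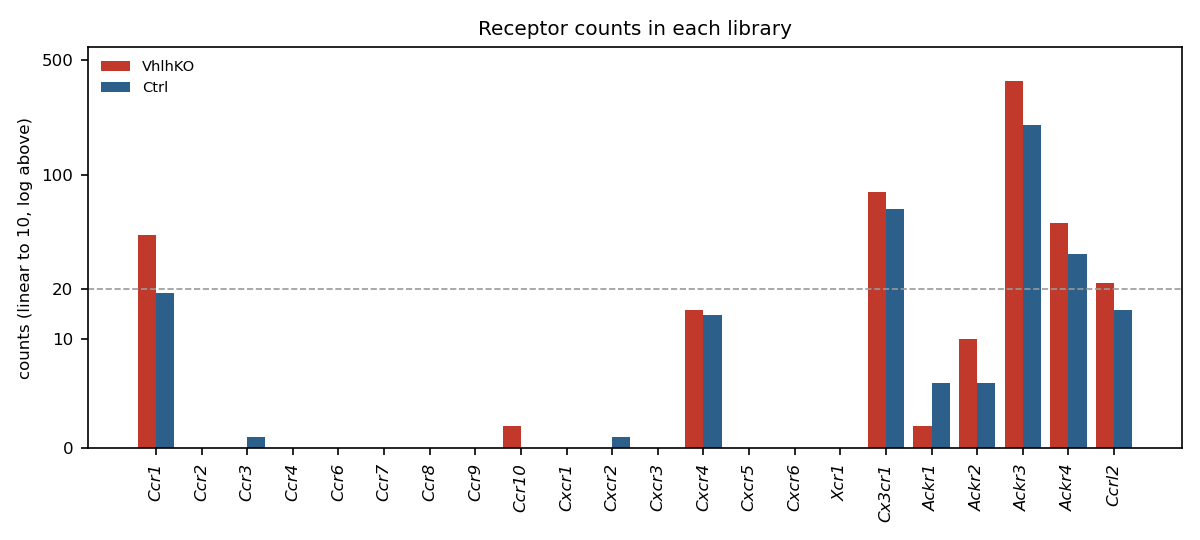
Counts of receptor genes of the family and of *Cx3cr1* in VhlhKO (left bars) and Ctrl (right bars), on an axis that is linear up to 10 and logarithmic above. The dashed line is the minimum of 20 counts, which *Ccr1*, *Cx3cr1*, *Ackr3*, *Ackr4* and *Ccrl2* reached in VhlhKO.

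The atypical receptors held most of the receptor counts, 459 of 522 in VhlhKO and 262 of 297 in Ctrl. *Ackr3*, a scavenging receptor of Cxcl12, had 374 counts in VhlhKO and 202 in Ctrl, or 11.6 TPM and 6.78 TPM. Its ratio of 1.72 (1.45 to 2.05) was within 2-fold and close to that of *Cxcl12*, and their counting intervals overlap. *Ackr4*, which takes up Ccl19, Ccl21 and Ccl25, had 51 counts in VhlhKO and 33 in Ctrl (ratio 1.44, 0.909 to 2.30), and *Ccrl2*, which binds the attractant chemerin, had a ratio of 1.36 (0.676 to 2.82). *Ackr2*, a scavenger of inflammatory CC chemokines known from lymphatic endothelium, had 10 counts in VhlhKO and 6 in Ctrl, and *Ackr1*, the Duffy antigen of venules and red cells, had 2 and 6.

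The 32 gene IDs with no counts in either library carry 26 symbols. They include the Ccr7 ligands *Ccl19*, *Ccl21a* and *Ccl21b* with *Ccr7* itself, a system by which lymphatic endothelium and lymph node stroma are known to guide dendritic cells and T cells. The other ligands at 0 were *Ccl1*, *Ccl11*, *Ccl22*, *Ccl24*, *Ccl26*, *Ccl27*, *Ccl27b*, *Cxcl9*, *Cxcl11*, *Cxcl15*, *Cxcl17* and *Xcl1*. The other receptors at 0 were *Ccr2*, *Ccr4*, *Ccr6*, *Ccr8*, *Ccr9*, *Cxcr1*, *Cxcr3*, *Cxcr5*, *Cxcr6* and *Xcr1*. The symbols *Ccl19*, *Ccl21a*, *Ccl21b* and *Ccl27* stand on 10 gene IDs in all, which are near-identical copies. Reads shared by such copies may be left out of the counts or split, so a count of 0 is uncertain for them. Of the 18 genes under the minimum, 13 had more counts in VhlhKO, 4 had more in Ctrl and 1 had the same. These are counts before scaling, and VhlhKO was the larger library. Except for *Cxcl5*, all their counting intervals included a ratio of 1. The same directions were not counted over all genes under the minimum, so nothing particular to the family can be read from them. Besides those named above, *Cxcl14* had 11 counts in VhlhKO and 8 in Ctrl, and 2 of the remaining genes were *Pf4*, platelet factor 4, with 8 and 1, and *Ccl20*, the Ccr6 ligand, with 8 and 5.

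The genes form 7 chromosomal clusters of at least 3 genes, with 36 of the 69 gene IDs in them. The genes past 2-fold in clusters were *Ccl2* and *Ccl7* in one and *Ccl6* in another, both on chromosome 11, and *Cxcl13* lies outside the CXC clusters of the same chromosome 5. In the larger of these CXC clusters *Cxcl1* was the most counted gene and none of the 7 was past 2-fold. Detection and silence were mixed within every cluster, with the exception of the *Ccl6* cluster, where all 5 genes had counts.

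**Figure D4:**
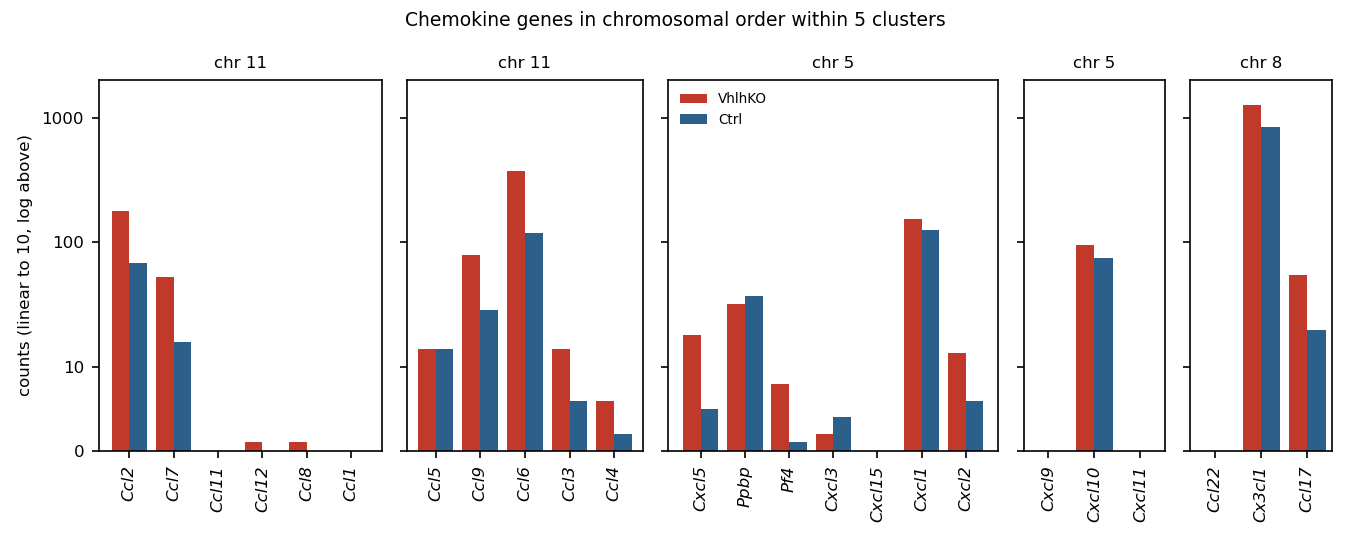
Counts of chemokine genes in VhlhKO (left bars) and Ctrl (right bars), ordered as along the chromosome in 5 of the clusters, on an axis that is linear up to 10 and logarithmic above. *Ccl6* (376 in VhlhKO and 119 in Ctrl) and *Ccl2* (179 and 69) exceed their neighbours, several of which have no bar because both counts were 0.

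Summed over the family, chemokine ligands reached 141.3 CPM in VhlhKO against 102.9 CPM in Ctrl, and receptors had 15.2 and 9.30 CPM. The inflammatory CC group besides the monocyte attractants summed to 16.1 CPM in VhlhKO against 6.11 CPM in Ctrl, and the monocyte attractants to 6.81 and 2.66 CPM. For the ELR group the sums were 6.40 CPM (VhlhKO) against 5.61 CPM (Ctrl). The sums of the CC groups differed more between the libraries than that of the neutrophil attractants, but each came mostly from a single gene. *Ccl6* gave 10.9 CPM in VhlhKO and 3.73 CPM in Ctrl, *Ccl2* gave 5.21 and 2.16 CPM, and *Cxcl1* gave 4.51 and 3.98 CPM. In the ELR group *Cxcl5* and *Cxcl2*, both under the minimum, had ratios of 3.34 and 2.01.

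**Figure D5:**
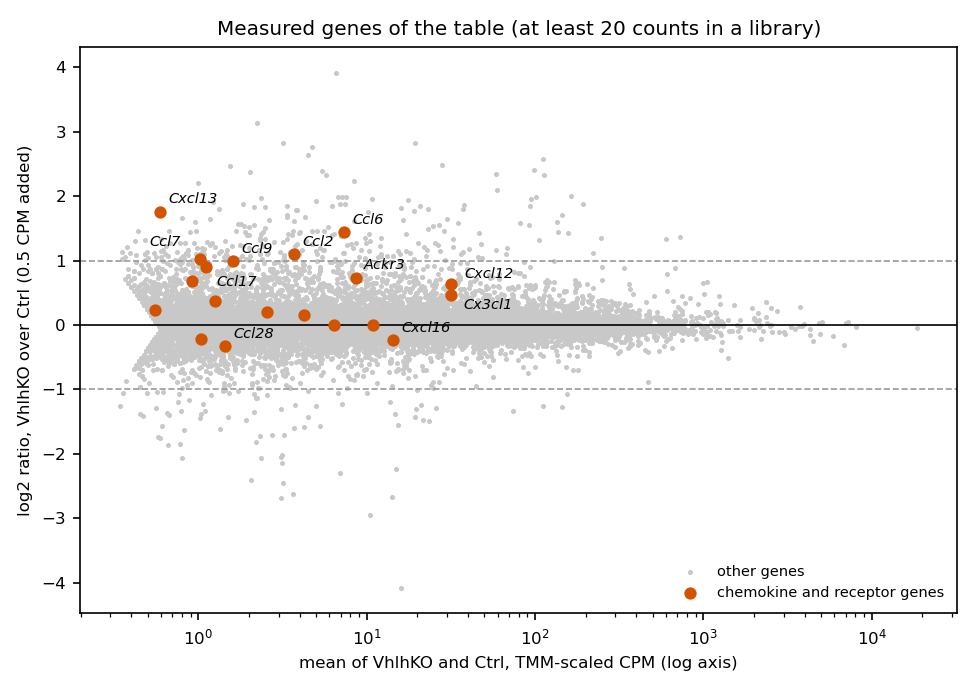
Log2 ratio of VhlhKO over Ctrl with 0.5 CPM added against the mean level in CPM (log axis) for the 15275 genes with at least 20 counts in a library, with the 19 chemokine and receptor genes in orange. *Cxcl13*, *Ccl6*, *Ccl2* and *Ccl7* lie above the dashed line of 2-fold and no gene of the family lies below the lower one.

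Genes of signals that induce chemokines were followed beside the family. Of 25 such genes, 20 were measured and none was past 2-fold in either direction, with a median log2 ratio of 0.21. *Tnfaip3*, a feedback inhibitor of NF-kappaB, had 1440 counts in VhlhKO and 724 in Ctrl (ratio 1.85, 1.69 to 2.02), and *Tnfrsf1b*, a TNF receptor, had 2351 and 1432 (1.53, 1.43 to 1.63). The cytokine genes themselves were few, with *Tnf* at 10 counts in VhlhKO and 4 in Ctrl, *Il1b* at 3 and 0, *Il6* at 17 and 1 and *Ifng* at 0 in both. In a list of 20 genes of lymphoid stroma and noncanonical NF-kappaB, 12 were measured and 1 was higher, *Vcam1*, a leukocyte adhesion molecule, with 1563 counts in VhlhKO and 455 in Ctrl (3.19, 2.87 to 3.55). *Ltbr*, the lymphotoxin receptor that is known to drive *Cxcl13* in lymphoid organs, had 3281 and 2875 counts (1.06, 1.01 to 1.12). Its downstream factors *Nfkb2* and *Relb* had ratios of 1.05 and 1.16. Of the 12 measured genes 11 had a log2 ratio above 0. *Tnfrsf11a* (28 and 8 counts, 3.25, 1.44 to 8.26) and *Tnfrsf14* (22 and 6, 3.41, 1.34 to 10.3) had few counts and stayed within 2-fold by the rule. *Tnfsf13b*, with 18 and 4 counts, was under the minimum.

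Of 28 genes of chemokine receptor signalling, 24 were measured and all 24 stayed within 2-fold, with a median log2 ratio of 0.05. *Gnai2*, the Gi subunit most used by these receptors, had 23151 counts in VhlhKO and 21948 in Ctrl. *Rac2*, a GTPase of blood cells, had 30 and 13 counts (ratio 2.14, 1.09 to 4.48). Among 17 genes of chemokine shedding and cleavage, 10 were measured and 1 was lower, *Cpn1*, a carboxypeptidase N subunit, with 35 counts in VhlhKO and 143 in Ctrl, 4.40-fold lower (3.02 to 6.56). *Adam10* and *Adam17*, which shed fractalkine and Cxcl16, had ratios of 1.15 (1.10 to 1.19) and 1.14 (1.06 to 1.22).

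Markers of other cell types also differed between the libraries. All 12 genes of a macrophage and monocyte list were measured, none being at 0, and 9 of them had a log2 ratio above 0. Summed, they reached 122.0 CPM for VhlhKO against 69.5 CPM for Ctrl, of which *Lyz2* alone gave 58.4 and 16.4 CPM. *Lyz2* (2007 and 522 counts) was past 2-fold higher and *Cd163* (5 and 38) past 2-fold lower. *Csf1r* (279 and 307) and *Cd14* (665 and 687) were also lower in VhlhKO, within 2-fold. *Ptprc*, which encodes CD45, had 24 counts in VhlhKO and 12 in Ctrl. Neutrophil markers summed to 0.146 CPM in VhlhKO against 0.125 CPM in Ctrl, with *S100a9*, *Ly6g* and *Retnlg* at 0, and B cell markers to 0.0873 and 0.157 CPM, with *Ms4a1* at 0. Among 10 fibroblast and pericyte markers 9 were measured and 4 were past 2-fold higher (*Pdgfra*, *Col1a1*, *Col1a2* and *Col3a1*). Of the 9, 7 had a log2 ratio above 0, while *Cspg4* (8012 and 8957 counts) was lower in VhlhKO, within 2-fold. The list summed to 3035 CPM for VhlhKO against 2689 CPM for Ctrl, of which *Acta2* alone gave 2117 and 2167 CPM. Of 5 platelet markers *Gp1ba*, *Gp1bb* and *Gp9* were at 0 in both libraries, while *Itga2b* had 72 counts in VhlhKO and 52 in Ctrl and *Itgb3*, which other cells also express, had 6804 and 4895. In the podocyte, proximal tubule, and parietal and mesothelial lists 1 gene each was past 2-fold higher (*Podxl*, *Aqp1* and *Msln*), and *Slc34a1*, *Slc5a2* and *Fbp1* of the proximal tubule were past 2-fold lower. Of 4 measured podocyte genes 3 had a log2 ratio above 0, but *Nphs1*, which encodes Nephrin, was lower (44 and 77 counts, ratio 0.531, 0.358 to 0.779). Of 5 measured parietal and mesothelial genes 3 were above 0, while *Upk3b* (53 and 66) and *Krt18* (1296 and 1313) were lower, within 2-fold. No gene of the blood endothelial, distal tubule, leukocyte or T and NK cell lists was past 2-fold. The part of macrophages or fibroblasts in the higher counts of *Ccl2*, *Ccl6*, *Ccl7*, *Ccl9*, *Cxcl12* and *Cxcl13* was not tested.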

How the data were processed

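Pdpn+ cells sorted from VhlhKO and Ctrl kidneys were profiled by bulk RNA-Seq, with 1 pooled library per genotype. The authors deposited raw counts per gene and TPM in a single table. Among the tools in the submitters' notes are STAR, featureCounts, cutadapt and DESeq2, listed without their roles, and the builds mm10 and GRCm38. Their versions and settings were not given in the sources used here. Columns of the authors' fold changes and p-values were left out.

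Counts were scaled by TMM (edgeR 4.0.16 in R 4.3.3, with factors of 0.997 in VhlhKO and 1.00 in Ctrl), and 0.5 CPM, which equals 17.2 counts in VhlhKO and 16.0 in Ctrl, was added to both sides of each log2 ratio. This pulls genes with few counts toward 0. Genes needed at least 20 counts in a library. Depth was 34465017 counts in VhlhKO and 31817115 in Ctrl. Intervals and all other steps were computed with scipy 1.17.1, pandas 2.3.3 and numpy 2.4.6 under Python 3.11.15. For list genes on several gene IDs, only the most counted ID was kept. GENCODE M21 gave the coordinates, and sequences are from RefSeq (GRCm38.p6). The rule of size and the intervals were tested on simulated data.

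Every member with at least 20 counts in a library, members with at least 10, and members with no counts are named, and of the other lists the genes past 2-fold and examples. Examples from the other lists that were not past 2-fold, low members under 10 counts and the TATAAA motif were chosen after their values were seen. Some single genes of the family and of the marker lists are not reported here by name. Members and lists were chosen with earlier results of these data known. Alternatives were other scalings (total counts, DESeq2 1.42.0 size factors), TPM, added amounts, count minimums and fold sizes.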

Additional observations from a re-analysis of the deposited data

How the results depend on the processing

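The number of family members at least 2-fold higher in VhlhKO was 4, the same 4 genes, under scaling by total counts or DESeq2 size factors, at a minimum of 10 counts and with no minimum. With the authors' TPM it was 6 (*Ccl9* and *Ccl17* added), with 0.05 CPM added 7 (*Ccr1* as well), with 5 CPM added 0, at a minimum of 100 counts 2 (*Ccl2* and *Ccl6*), at 1.5-fold 9 and at 3-fold 1 (*Cxcl13*). No member was past 2-fold lower under any of these settings. Over all genes, 435 were higher and 151 lower with 0.05 CPM added, 66 and 18 with 5 CPM added, 725 and 278 at 1.5-fold and 63 and 25 at 3-fold, and 46 were lower at a minimum of 100 counts. In the pathway and marker lists joined, 10 genes were higher and 5 lower, against 20 higher with 0.05 CPM added, 6 higher and 0 lower with 5 CPM added and 1 lower at a minimum of 100 counts. These shifts follow from the construction of each setting. The log2 ratio of *Cxcl13*, 1.76 with 0.5 CPM added, was 4.64 with 0.05 CPM, 0.31 with 5 CPM and 3.07 on TPM, since Ctrl had no counts. Of 95 values of single members under other settings, 6 moved by more than the counting error. *Ccl25* and *Ccl27a*, both near a ratio of 1, changed sign with scaling by total counts and with TPM. No paired analysis was possible because each genotype has 1 library. Depth limits the genes under 20 counts, whose ratios could not be told from 1 or have wide intervals.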

Other observations

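Genes with chemokine-like products lie outside the symbol rule and were looked at after their values were seen. *Tafa5*, a secreted neurokine-like protein of the TAFA family, had 592 counts in VhlhKO and 411 in Ctrl (ratio 1.34, 1.18 to 1.52), and *Tafa1* had 44 and 19 (2.15, 1.23 to 3.90), within 2-fold with 0.5 CPM added. *Cklf*, chemokine-like factor, had 379 counts in VhlhKO and 362 in Ctrl (0.973, 0.840 to 1.13). *Cmklr1*, the chemerin receptor, had 27 and 16 counts (1.57, 0.815 to 3.11).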
